A study of Mus musculus with 18 samples.

Results

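The regions described here are the differential m6A peaks of mouse uterus that the authors' annotation placed in distal intergenic sequence, the class left for peaks that received none of the promoter, exon, intron or downstream classes. Some of them still lie close to a gene, 54 of those up under LPS within 1 kb past the end of the assigned gene. They were chosen as the rows of the 4 deposited peak tables whose feature class was exactly Distal Intergenic, on the numbered chromosomes and X. The rule found 4160 of the 39445 peaks on these chromosomes. In LPS vs Veh they comprised 1529 of 11483 peaks that were up and 618 of 6259 that were down, and in Mel+LPS vs LPS 537 of 12930 that were up and 1476 of 8773 that were down. In the following, these 4 groups are called up under LPS, down under LPS, up with melatonin and down with melatonin. The table of those down under LPS was complete on chromosomes 1 to 9 only, so every comparison of up with down peaks under LPS was restricted to those chromosomes.

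The uteri came from wild type mice on day 5 of pregnancy (ICR females of 8 weeks, according to the methods). The treatments Veh, LPS and Mel+LPS were compared, each with 3 input libraries and 3 libraries immunoprecipitated (IP) with an m6A antibody, 18 libraries in all. Mice were injected daily on days 1 to 4, with vehicle in the Veh and LPS groups and with melatonin (10 mg/kg) in the Mel+LPS group. On days 3 and 4, mice of the LPS and Mel+LPS groups also received bacterial lipopolysaccharide (0.5 mg/kg). The RNA came from whole uterus, so a peak cannot be given to the luminal epithelium, stroma, muscle or immune cells, and fewer cells of a type and less RNA per cell cannot be told apart.

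N6-methyladenosine is written co-transcriptionally by the METTL3-METTL14 complex at adenosines within a short consensus whose best known core is GGAC, and it is read by YTH domain proteins that affect RNA stability and translation. In mRNA it is known to be concentrated near stop codons and in 3' UTRs. RNA from intergenic sequence includes unannotated long noncoding RNAs, transcribed pseudogenes, transcripts of repeats and readthrough past the ends of genes, and such RNA can carry the mark as well.

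Each peak had 1 score per comparison and none per library. The score is the log10 likelihood ratio of the authors' comparison of treatments, so that a score of 3 stands for reads 1000 times more likely under a difference than under none. No replicate error can be attached to it, the read depth behind it is unknown, and no comparison below has a test over mice. The RNA level at a peak is not given either. A change in methylation and a change in the amount of RNA therefore cannot be told apart from the scores. The intervals given are Wilson 95% intervals over peaks, which cover counting only, and neighbouring peaks are not independent. The gene assigned to a distal intergenic peak is the gene with the nearest transcription start, not a host.

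Sequence could be read for those peaks that lie on an exon of GENCODE M21, a different annotation on the same build (GRCm38), from its transcripts. Shown here are the 2 peaks of highest score in each table on exons of pseudogenes or noncoding genes. GENCODE annotates an exon at these places, although the authors' annotation placed the peaks outside genes. An annotated pseudogene exon does not show that the sequence is transcribed. The sequences run 5' to 3' on the strand of the GENCODE gene, restricted to the exon and to 300 bases, and GGAC is in capitals. The first pair was up under LPS, the second down under LPS, the third up with melatonin and the fourth down with melatonin.
Gm8388, chr3:63173106-63173405, minus strand: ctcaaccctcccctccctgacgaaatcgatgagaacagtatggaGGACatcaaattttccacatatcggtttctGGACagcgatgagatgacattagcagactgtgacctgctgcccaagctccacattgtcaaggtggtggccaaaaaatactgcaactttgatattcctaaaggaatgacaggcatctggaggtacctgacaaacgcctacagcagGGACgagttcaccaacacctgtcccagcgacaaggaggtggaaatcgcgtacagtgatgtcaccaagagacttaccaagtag
Gm19026, chr1:6438146-6438376, minus strand: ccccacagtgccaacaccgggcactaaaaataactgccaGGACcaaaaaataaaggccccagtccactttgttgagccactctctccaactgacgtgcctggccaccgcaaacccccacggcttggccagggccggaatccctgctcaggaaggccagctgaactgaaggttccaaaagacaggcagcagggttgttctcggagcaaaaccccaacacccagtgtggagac
Sprr2c-ps, chr3:92326816-92326900, plus strand: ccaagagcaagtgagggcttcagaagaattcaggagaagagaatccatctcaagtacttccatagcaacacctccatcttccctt
Gm30414, chr1:7517807-7518013, plus strand: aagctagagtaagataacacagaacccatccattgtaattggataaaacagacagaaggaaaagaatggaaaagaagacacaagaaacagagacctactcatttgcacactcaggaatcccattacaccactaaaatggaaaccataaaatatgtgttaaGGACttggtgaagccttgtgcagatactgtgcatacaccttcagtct
AC122453.2, chr17:82355972-82356084, plus strand: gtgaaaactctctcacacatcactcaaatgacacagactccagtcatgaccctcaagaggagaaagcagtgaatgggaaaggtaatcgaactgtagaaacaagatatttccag
AC154707.1, chr17:22067579-22067831, minus strand: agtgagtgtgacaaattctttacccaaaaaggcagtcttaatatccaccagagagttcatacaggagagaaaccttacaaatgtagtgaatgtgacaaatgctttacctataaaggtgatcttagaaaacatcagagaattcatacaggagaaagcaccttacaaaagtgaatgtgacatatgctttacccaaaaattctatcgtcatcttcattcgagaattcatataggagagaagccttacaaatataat
4833419O12Rik, chr16:20800830-20800983, minus strand: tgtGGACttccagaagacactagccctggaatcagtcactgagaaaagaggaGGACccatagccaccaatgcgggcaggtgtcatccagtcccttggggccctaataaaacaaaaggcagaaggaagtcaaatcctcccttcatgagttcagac
Gm10451, chr12:76450700-76450911, plus strand: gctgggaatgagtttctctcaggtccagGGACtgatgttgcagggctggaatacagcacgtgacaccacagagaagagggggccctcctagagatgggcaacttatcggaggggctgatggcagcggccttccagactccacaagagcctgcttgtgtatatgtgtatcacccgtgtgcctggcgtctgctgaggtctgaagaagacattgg

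Gm8388 and Gm19026 are processed pseudogenes, that is, copies inserted from mature RNAs. The Gm8388 peak was assigned to Gm22433 and had a score of 23.8 in the authors' deposited table, and the printed stretch held 3 GGAC. The Gm19026 peak was assigned to St18 at a score of 13.5 and held 1 GGAC. Sprr2c-ps, a pseudogene copy in the cluster of small proline-rich epithelial genes, scored 23.9 under its assigned gene Sprr2b and held no GGAC in its 85 printed bases. The lincRNA Gm30414 scored 9.49 and held 1 GGAC. The peaks on the 2 pseudogenes of chromosome 17, AC122453.2 and AC154707.1, scored 12.8 and 11.6, and neither printed stretch held GGAC. The lincRNAs 4833419O12Rik and Gm10451 scored 10.4 and 9.29, with 2 and 1 GGAC. A peak without GGAC in these letters may still carry another form of the consensus, which was not looked for in single peaks.

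Over all peaks that lay wholly on 1 exon, GGAC was counted on the transcript strand. It was present in 65 of 115 distal intergenic peaks up under LPS (56.5%, interval 47.4 to 65.2), in 30 of 54 down under LPS (55.6%, 42.4 to 68.0), in 41 of 81 up with melatonin (50.6%, 40.0 to 61.2) and in 50 of 102 down with melatonin (49.0%, 39.5 to 58.6). Peaks of all other classes, with median widths of 167 to 178 bases against 156 to 176 bases, held it in 60.3%, 57.6%, 62.2% and 54.9% in the same order. Only in the table of peaks up with melatonin did the interval of the distal intergenic peaks lie below that value by counting. Against adjoining stretches of the same length in the same transcripts, the density of GGAC was 1.03 times as high in peaks up under LPS (0.791 to 1.34), 1.29 times (0.865 to 1.91) in peaks down under LPS, 1.41 times (1.02 to 1.958) in peaks up with melatonin and 1.24 times (0.932 to 1.65) in peaks down with melatonin. The ratio was above 1 beyond its counting interval in 1 of the 4 tables, and in peaks of all other classes it was 1.38, 1.31, 1.37 and 1.28. Against flanks 1000 bases away, which only 76, 37, 45 and 70 of the distal intergenic peaks had, the ratio was 1.70, 2.14, 2.35 and 1.378. Peaks of all other classes had 1.37, 1.32, 1.43 and 1.31 with such flanks. Adjoining flanks were read for 111, 52, 75 and 101 distal intergenic peaks, so the flank and the set of peaks changed together. GC content on the exons was 45.6 to 46.5% in the distal intergenic peaks and 47.1 to 48.9% in peaks of other classes. These peaks are the annotated minority, and the sequence of the others was not analysed here.

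Distal intergenic peaks leaned towards gain of signal under LPS and towards loss of signal when melatonin was added. Whether methylation or the amount of RNA changed cannot be told from the scores. In LPS vs Veh on chromosomes 1 to 9, 841 distal intergenic peaks were up and 618 were down, so 57.6% were up (55.1 to 60.2), while 49.8% of all listed peaks on these chromosomes were up. The nearest classes were close to the whole table, with 48.8% up among 3' UTR peaks (46.9 to 50.7) and 49.9% up among peaks in introns after the first (47.5 to 52.2). In Mel+LPS vs LPS, 537 were up and 1476 were down, so 26.7% were up (24.8 to 28.7), while 59.6% of all listed peaks were up. There, 74.4% of exon peaks, 55.8% of 3' UTR peaks and 46.7% of peaks in later introns were up, so introns shared part of the lean and exons had the opposite one. On chromosomes 1 to 9 alone, 26.7% of the distal intergenic peaks were up in Mel+LPS vs LPS (24.2 to 29.4). The LPS libraries enter both comparisons, so the lean in one is not independent of the lean in the other.

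**Figure D1:**
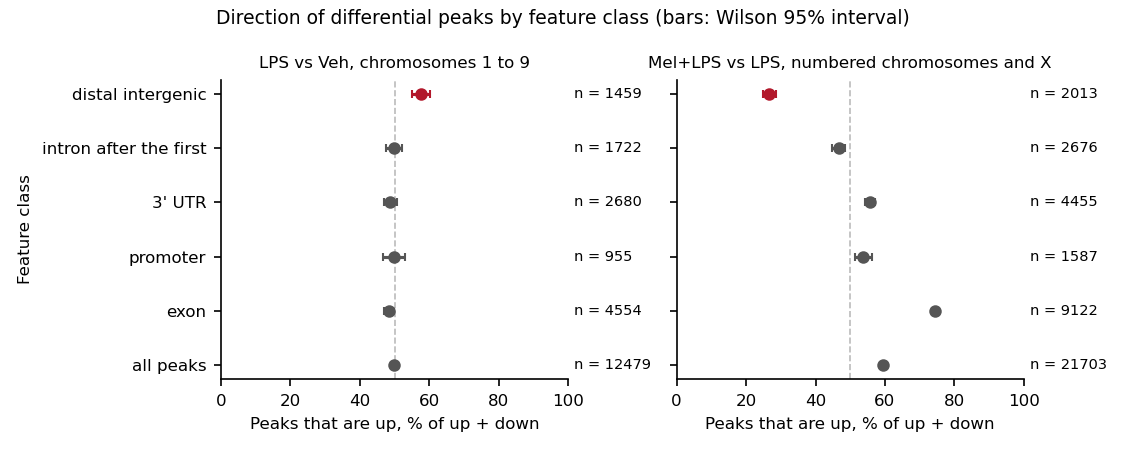
Share of listed peaks that were up, as percent of up plus down, by feature class in LPS vs Veh on chromosomes 1 to 9 (left) and in Mel+LPS vs LPS (right). Points are shares, bars are Wilson 95% intervals over peaks, and n is the number of peaks. The distal intergenic class (red) sits at 57.6% in the first comparison, to the right of the other classes, and at 26.7% in the second, to their left.

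As a share of each table, distal intergenic peaks were 13.3% of all peaks up under LPS (12.7 to 13.9) and 9.87% of all down under LPS (9.16 to 10.6). They were 4.15% of those up with melatonin (3.82 to 4.51) and 16.8% of those down with melatonin (16.1 to 17.6). The share differed between chromosomes. The X chromosome had the highest share among peaks up under LPS (90 of 413 peaks, 21.8%, 18.1 to 26.0), among peaks up with melatonin (37 of 399, 9.27%, 6.80 to 12.5) and among peaks down with melatonin (81 of 311, 26.0%, 21.5 to 31.2). Chromosome 13 was second in all 3 of these tables, with 19.3%, 7.76% and 21.6%. The lowest shares were on chromosome 19 for peaks up under LPS (8.26%), chromosome 18 for peaks up with melatonin (2.35%) and chromosome 11 for peaks down with melatonin (11.8%). Among the 9 chromosomes of the peaks down under LPS, the share ran from 8.48% on chromosome 5 to 12.2% on chromosome 1. Gene density and the amount of intergenic sequence of each chromosome were not analysed here.

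The scores of distal intergenic peaks were high for their tables. The median was 3.78 for peaks up under LPS, 3.63 for peaks down under LPS, 4.63 for peaks up with melatonin and 3.85 for peaks down with melatonin. The medians of all other peaks were 2.58, 2.47, 2.14 and 2.63, and those of 3' UTR peaks lay between 1.85 and 2.04. A score of at least 3 was reached by 1160 of the 1529 peaks up under LPS (75.9%), against 48.6% of all peaks in that table. It was reached by 465 of the 618 peaks down under LPS (75.2%), against 45.9%, by 312 of the 537 peaks up with melatonin (58.1%), against 32.6%, and by 1073 of the 1476 peaks down with melatonin (72.7%), against 50.9%. Peaks in introns after the first were close to them in 3 tables, with 69.2%, 66.7% and 74.2% at 3 or above, and lower among peaks up with melatonin, with 48.5%.

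In each table, 1 value was repeated in many of these peaks. The score 3.78494 was shared by 362 of the 1529 peaks up under LPS (23.7%), against 12.1% of all peaks in that table, and 3.63445 by 178 of the 618 peaks down under LPS (28.8%), against 11.7%. The score 5.42348 was shared by 82 of the 537 peaks up with melatonin (15.3%), against 3.49%, and 3.85169 by 348 of the 1476 peaks down with melatonin (23.6%), against 14.9%. Peaks in introns after the first held the same values in 25.8%, 24.2%, 9.21% and 28.9%, so the repeated scores were not particular to distal intergenic peaks. The medians of 3 of the 4 groups of distal intergenic peaks are these very values. Without the repeated scores, the medians of the distal intergenic peaks were 4.19, 4.08, 3.05 and 4.01, those of peaks in introns after the first 3.91, 3.65, 2.56 and 4.26, and those of all other peaks together 2.28, 2.21, 2.09 and 2.22. The peaks that shared them were narrower, with median widths of 132 to 151 bases, than the distal intergenic peaks of each table as a whole, with 173 to 189 bases. The tables hold no read count per peak, and what the repeated values go back to was not tested. At the upper end, a score of at least 10 was reached by 86, 30, 28 and 50 distal intergenic peaks, or 5.62%, 4.85%, 5.21% and 3.39% of them, against 3.22%, 4.11%, 2.67% and 2.07% of all other peaks. Peaks in introns after the first reached it in 4.11%, 3.59%, 4.72% and 3.78%, and promoter peaks down under LPS in 5.44%.

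**Figure D2:**
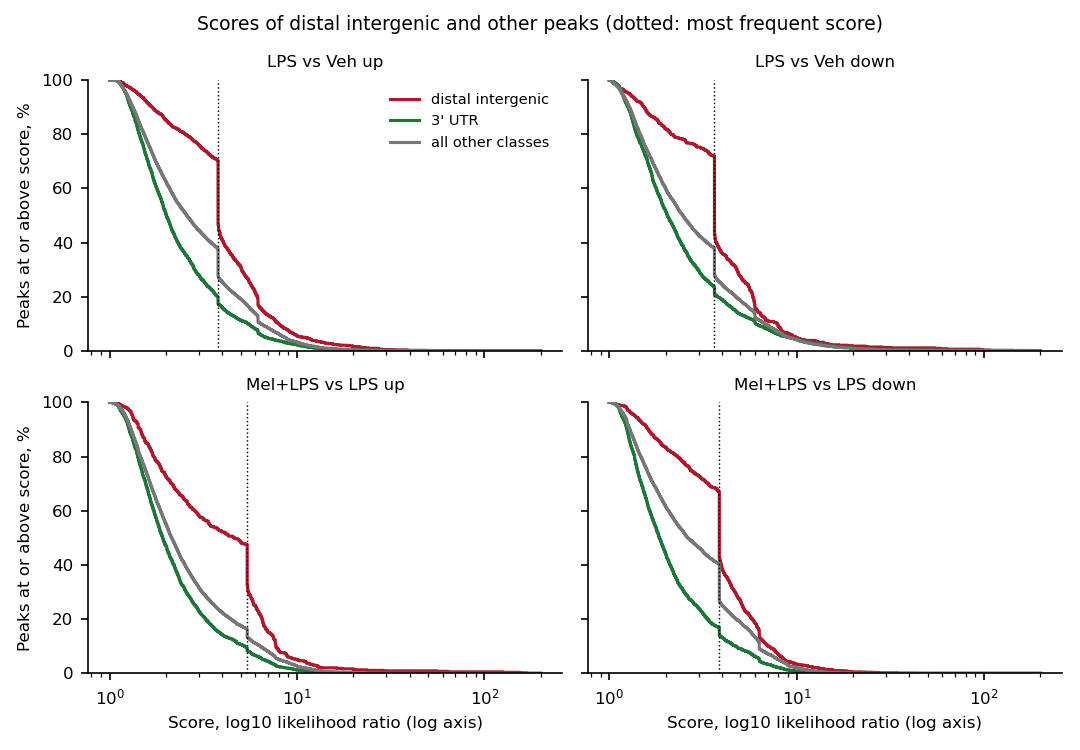
Percent of peaks at or above a given score (vertical axis) against the score, a log10 likelihood ratio on a log axis, in each of the 4 tables, for distal intergenic peaks (red), 3' UTR peaks (green) and all other classes (grey). The red curve lies above the others over most of the range and drops at the dotted line, the most frequent score, where 23.7%, 28.8%, 15.3% and 23.6% of the distal intergenic peaks share 1 value.

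Among peaks up under LPS, the first was a 272-base peak at chr1:29651822-29652093, 166 kb from the start of Gm5525, with a score of 82.0. It was followed by peaks assigned to Gm19457 (60.3), Ighj3 (49.5), n-TRacg6 (39.2) and Zfp964 (38.1). Ighj3 is a joining segment of the immunoglobulin heavy chain locus, and its 110-base peak began 0.107 kb from the segment's start, whereas n-TRacg6 is a nuclear tRNA gene for arginine. All 5 were overlapped by a distal intergenic peak of the table of peaks down with melatonin, at scores of 6.92, 2.53, 2.65, 7.69 and 3.76 in the same order. The 5 were picked for their scores under LPS, so lower scores in the other comparison follow in part from the choice. The LPS libraries enter both comparisons, and the share of all peaks with such an overlap is not given here.

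The table of peaks down with melatonin was led by 1700063A18Rik (44.0), Olfr810 (34.4), Mef2d (33.7), Gm33381 (27.3) and Nav1 (27.1). Mef2d encodes a transcription factor of muscle and nerve, and its peak at chr3:88138093-88138335 lay 3.61 kb upstream of its start. The matching peaks up under LPS scored 2.05 at Mef2d, 2.88 at Gm33381 and 26.7 at Nav1, and none overlapped the peaks at 1700063A18Rik and Olfr810. Of these 10 leading places, only Nav1 had a score above 10 in both comparisons.

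Peaks down under LPS and peaks up with melatonin were led by the same stretch of chromosome 8 between Tubb3, a neuronal beta-tubulin, and the RefSeq start of Def8. In LPS vs Veh, 9 peaks fell within chr8:123425854-123434476, a span of 8623 bases, and all were down. Their scores from left to right were 94.6, 108, 63.5, 18.7, 3.63, 31.7, 185, 98.05 and 54.2, and their widths ran from 115 to 2350 bases. In Mel+LPS vs LPS, 4 peaks covered chr8:123425832-123434469, all were up, and their scores were 155, 125, 168 and 63.8. The last peaks of the groups ended 8.48 and 8.49 kb before the RefSeq start of Def8. No distal intergenic peak of either opposite direction was listed in the span. The 4 peaks up with melatonin filled 7135 of its 8638 bases, and 2 of them, of 3061 and 3593 bases, were the only distal intergenic peaks of that table at least 1000 bases wide.

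RefSeq places the start of Def8 at 123442956, past these peaks, but GENCODE M21 starts Def8 at 123423527, so that the peaks fall in introns of Def8 and of Gm20388 there. Repeats and inserted sequence in the stretch were not analysed here, so its peaks cannot be given to RNA of Def8 or Tubb3. Other peaks near the stretch scored lower. An exon of Tubb3 had a peak up with melatonin at a score of 7.81, and a 5' UTR peak of Def8 was up under LPS at 2.29. Of the 13 peaks in the stretch, 12 scored above both. The stretch is named for its high scores, so this follows largely from the choice. Whether all mice of a group shared these scores was not tested, as no value per library was used.

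**Figure D3:**
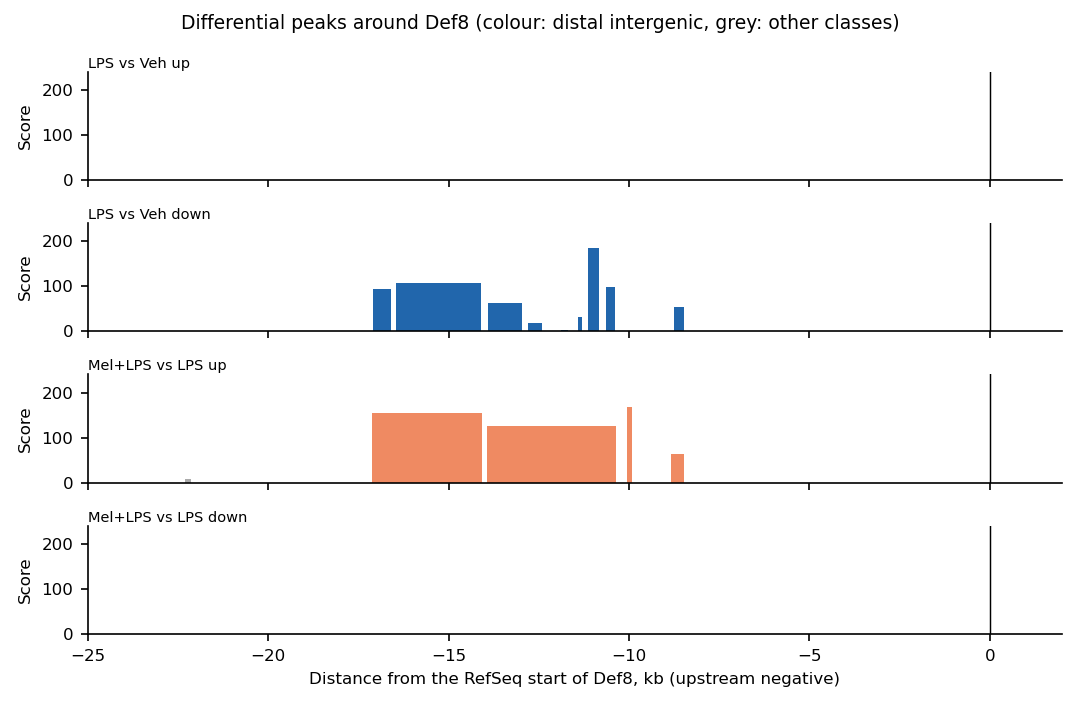
Differential peaks between 25 kb upstream and 2 kb downstream of the RefSeq start of Def8 (horizontal axis, kb) with their scores (vertical axis, log10 likelihood ratio), 1 panel for each table. Coloured bars are distal intergenic peaks drawn at their width, grey bars are other classes. The 9 peaks down under LPS and the 4 peaks up with melatonin occupy the same stretch, and the panels of the opposite directions hold no distal intergenic peak.

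Many distal intergenic peaks came in groups. With peaks of a table within 5 kb of each other joined into a locus, 479 of the 1529 peaks up under LPS lay in loci of several (31.3%), as did 120 of 618 peaks down under LPS (19.4%), 107 of 537 up with melatonin (19.9%) and 391 of 1476 down with melatonin (26.5%). Counted by locus, the 4 tables held 1219, 548, 476 and 1233 places. Loci of other classes are not given here, so the grouping is not shown to be particular to distal intergenic peaks.

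Among peaks up under LPS the largest loci were assigned to LOC115490200, Zscan4-ps3 and Usp10. At LOC115490200, 8 peaks within chr5:109900541-109907542 had scores of 1.224 to 8.86, and 6 peaks down with melatonin lay in the same span. At Zscan4-ps3, a pseudogene of a family known for its expression in the early embryo, 7 peaks within chr7:11601603-11605332 had scores of 1.37 to 14.1. Of these, 6 had a partner among the peaks down with melatonin, 4 of them with identical starts, at scores of 1.91 to 7.62. At Usp10, a deubiquitinase, 7 peaks lay 13.4 to 19.9 kb upstream of the start with scores of 1.92 to 7.10, the widest being 1404 bases, and 2 peaks down with melatonin lay in the span. For these and the following loci, the LPS libraries enter both comparisons. The share of all peaks with a partner in the other comparison is not given here.

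Peaks down with melatonin were densest at Gm40048 (6 peaks, scores 1.77 to 7.88), Zscan4-ps3 (6 peaks) and Gm16505 (6 peaks, 3.85 to 7.31). The Gm40048 and Gm16505 loci held 5 and 4 peaks up under LPS. At Gm40048 the peaks up under LPS scored higher than their partners in 4 of 5 pairs, as in 16.1 against 7.88 at chr3:53365571-53365928. Down under LPS, Gm40108 followed the Def8 stretch with 5 peaks (1.49 to 8.29), and Vmn1r43, a vomeronasal receptor gene, with 4 (3.63 to 5.80). The Vmn1r43 peaks lay past the RefSeq end of that gene but on a GENCODE exon of it. Up with melatonin, Gm6828 had 4 peaks (1.12 to 9.35) and BC048507 had 4 (2.83 to 4.17). The Gm40108 and Vmn1r43 spans each held 2 peaks up with melatonin. At Gm6828, 2 peaks down and 1 peak up under LPS lay in the same span, so the direction was mixed. At BC048507, 4 peaks up under LPS and 1 down with melatonin lay in the same span, so there the direction was not opposite.

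Peaks of opposite direction in the same comparison also lay side by side. Within 5 kb of a distal intergenic peak of the other direction were 101 of 841 peaks up under LPS (12.01%) and 91 of 618 down under LPS (14.7%), both on chromosomes 1 to 9. The counts in Mel+LPS vs LPS were 114 of 537 peaks up (21.2%) and 123 of 1476 down (8.33%). These 114 and 123 peaks are neighbours of each other, so their shares differ with the totals of 537 and 1476. No such share is given here for other classes, so it is not shown to be particular to distal intergenic peaks. A gain at such a place was therefore next to a loss in the same libraries.

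Relative to the assigned gene, 46.5% of the peaks up under LPS, 41.7% of those down under LPS, 46.0% of those up with melatonin and 45.1% of those down with melatonin lay past the 3' end, and the others lay upstream of the start. Within 10 kb past the end were 355 (23.2%), 125 (20.2%), 118 (22.0%) and 330 (22.4%), and the 4 intervals overlapped. The median distance to the start was 16.1, 15.4, 15.4 and 16.8 kb. Over 100 kb from any start were 7.78% to 10.2% of the peaks, the farthest being 900 kb away in the table of peaks down under LPS. The bin up to 5 kb upstream was low. Peaks that the annotation gave to the promoter class are not counted in it, and whether this lowers the bin was not tested.

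**Figure D4:**
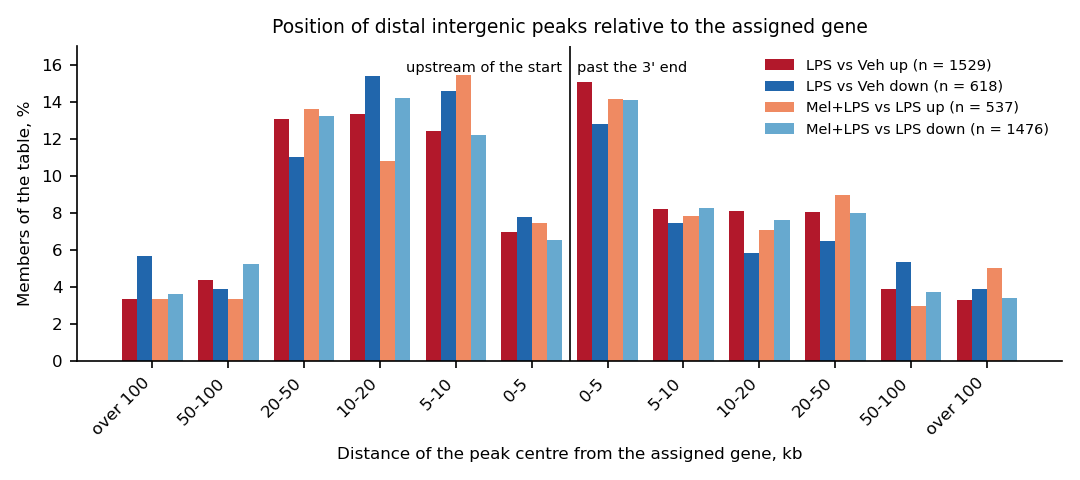
Percent of the distal intergenic peaks of each table (vertical axis) by distance of the peak centre from the assigned gene in kb (horizontal axis), upstream of the start on the left and past the 3' end on the right. The 4 tables have like profiles, and in each the bin up to 5 kb past the end is higher than the bin up to 5 kb upstream.

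Most peaks past the end of a gene had no 3' UTR peak near them. Of the peaks within 10 kb past an end, 56 of 355 up under LPS (15.8%) had a 3' UTR peak of the same table within 10 kb. This was so for 5 of 125 down under LPS, 10 of 118 (8.47%) up with melatonin and 36 of 330 (10.9%) down with melatonin. Of all distal intergenic peaks, 5.43%, 3.40%, 4.66% and 4.54% had one within 10 kb, so the peaks past an end had one more often, by little among those down under LPS. A peak of any other class of the same table lay within 10 kb of 8.90% to 13.9% of all distal intergenic peaks. The peaks of highest score just past an end were, up under LPS, those of Ighj3 and at Il9 (20.997), a cytokine gene of T cells, and, down under LPS, those of Tubb3 (94.6, in the Def8 stretch) and Pla2g2e (28.6), a secreted phospholipase A2, 3.18 kb past its end. Up with melatonin they were Ccdc121 (20.4) and Alyref2 (12.9), an mRNA export adaptor, and down with melatonin Gm34181 (18.7) and Olfr1217 (15.1). The Alyref2 peak, 2.99 kb past the end, overlapped a peak down under LPS of score 6.33.

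The genes to which distal intergenic peaks were assigned differed in kind from those of other peaks. Pseudogenes were the assigned gene of 328 of 1529 peaks up under LPS (21.5%, 19.5 to 23.6), against 8.54% of all other peaks in that table, and of 17.6%, 21.2% and 21.9% of the peaks down under LPS, up with melatonin and down with melatonin. Protein-coding genes were assigned in 44.8%, against 65.8%, and long noncoding RNA genes in 25.9%, against 19.9%. Some gene families were also counted by name, and not all of them differed. Members of large sensory receptor families, which are expressed in olfactory tissue, were more frequent than among other peaks. Olfactory receptor genes were assigned to 14 of 1529 peaks up under LPS (0.916%) and to 21 of 1476 peaks down with melatonin (1.42%), against 0.141% and 0.151% of all other peaks. Vomeronasal receptor genes were assigned to 8 peaks in each of the 4 tables (0.523%, 1.29%, 1.49% and 0.542%). Of the other peaks they were assigned to 8, 0, 2 and 7 (0.0804%, 0%, 0.0161% and 0.0959%). The single locus at Vmn1r43 held 4 of the 8 distal intergenic peaks down under LPS. Pramel genes, a family of the germ line, were assigned to 10 distal intergenic (0.654%) and 1 other peak up under LPS and to 8 (0.542%) and 1 down with melatonin. Down under LPS the counts were 1 and 1, and up with melatonin 1 and 2. Zfp zinc finger genes were near the other peaks, with 3.40%, 2.75%, 3.17% and 2.78% against 3.18%, 2.29%, 2.32% and 2.74%. Immunoglobulin segments were level up under LPS (0.458% against 0.442%). Up with melatonin they were assigned to only 3 of 537 distal intergenic peaks (0.559%), against 5 of 12393 other peaks (0.0403%). Down under LPS the counts were 1 and 0, and down with melatonin 9 (0.610%) and 23 (0.315%). Serpin genes were assigned to 1 distal intergenic peak in each table. Nearness to a start does not show that these genes were transcribed.

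By the GENCODE annotation, most but not all of these peaks were intergenic. The peak centre lay outside every GENCODE gene in 1240 of 1529 peaks up under LPS (81.1%), 496 of 618 down under LPS (80.3%), 405 of 537 up with melatonin (75.4%) and 1214 of 1476 down with melatonin (82.2%). The nearest GENCODE gene was then a median of 9.29, 8.69, 7.29 and 9.36 kb away, and over 50 kb away for 12.02%, 14.3%, 7.41% and 10.6%. The centre lay on a GENCODE exon in 9.29% (7.93 to 10.8), 9.87% (7.76 to 12.5), 18.2% (15.2 to 21.7) and 8.33% (7.03 to 9.85) of the peaks, in the same order. The share was highest among peaks up with melatonin, where pseudogene exons held 53 of 537 peaks (9.87%, 7.62 to 12.7), against 2.35%, 3.56% and 1.76% in the other tables. That table was rich in exons as a whole. In the authors' annotation, exon peaks were 52.5% of all its peaks, against 36.2%, 37.5% and 26.7% in the other tables. A high exon share is therefore not shown to be particular to its distal intergenic peaks. With scores of at least 3, the share of distal intergenic peaks up with melatonin on a GENCODE exon fell to 11.2%, against 6.72%, 7.53% and 7.08%. Of these peaks, 17 of 312 lay on pseudogene exons (5.45%, 3.43 to 8.55), against 1.55%, 2.58% and 1.21%. Exons of protein-coding genes held 3.33%, 3.24%, 4.84% and 3.52%. Processed pseudogenes resemble the mRNAs they were copied from, so the origin of reads placed there is uncertain, and how reads that match several places were treated is not given in the sources used here.

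Some of the strongest exon peaks lay on exons of protein-coding genes, at Calb1 and Slc25a48 past the gene end that RefSeq gives. A peak at chr4:15907377-15908065 was assigned to Gm26148, but it lies on an exon of Calb1, the calcium-binding protein calbindin-D28k of uterine epithelium, whose end is at 15908064 in GENCODE and at 15906709 in RefSeq. It was up under LPS at a score of 19.8 and down with melatonin at 13.9, at identical coordinates. The peak assigned to Il9, at chr13:56473381-56473972, lies on an exon of Slc25a48, a mitochondrial carrier, which ends at 56474239 in GENCODE and at 56472367 in RefSeq. It was up under LPS at 20.997 and down with melatonin at 8.57. A peak assigned to Rpl29-ps6 and down with melatonin at 13.2 lies on an exon of Ostf1, with a peak up under LPS of 1.70 at the same place. The ends of Ostf1 in GENCODE and RefSeq are not given here. All 3 were outside genes in the authors' annotation and on exons of protein-coding genes in GENCODE.

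In the cluster of small proline-rich genes on chromosome 3, whose products are made by squamous and uterine luminal epithelium, 5 distal intergenic peaks were down under LPS and none were up. These were 5 of 618 peaks down (0.809%) and 0 of 1529 up, while 57.6% of all distal intergenic peaks on chromosomes 1 to 9 were up. The cluster is a single place and was chosen after its values were seen. The 5 peaks included Sprr2c-ps, given above (23.9), a peak on a GENCODE exon of Sprr2a3 at chr3:92290930-92291159 (15.3), and a peak 8.60 kb upstream of Sprr2a1 (4.597). The table of peaks down under LPS held 7 further peaks of other classes at Sprr genes, of 5641 (0.124%), and that of peaks up under LPS held 0 of 9954. Among peaks down with melatonin, 1 distal intergenic peak was assigned to these genes, and among peaks up with melatonin 0. The genes of the family are near copies of each other, so the place of a read within the cluster is uncertain.

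Of 30 genes of uterine receptivity and decidua, 2 had a distal intergenic peak assigned, Pgr and Spink1, with 9 of the 108 peaks of any class at these genes (8.33%, 4.45 to 15.1), against 10.5% of all peaks in the 4 tables. Pgr, the progesterone receptor that governs the receptive uterus and decidua, had distal intergenic peaks in all 4 tables. Up under LPS were peaks of 5.51 and 3.78 upstream, 17.4 and 8.88 kb from the start, and a peak of 3.15 past the 3' end. Down under LPS were peaks of 1.31 and 7.80, both upstream, at 21.2 and 4.23 kb. Down with melatonin were peaks of 7.35 upstream and 8.53 past the end, and up with melatonin was a peak of 1.41 past the end. Only the peak at 17.4 kb had a partner in the other comparison, at chr9:8881208-8881491 up under LPS and chr9:8881251-8881590 down with melatonin. Inside Pgr, intron peaks near 36.4 kb scored 12.5 up under LPS and 11.6 down with melatonin, so the highest scores at this gene were not in distal intergenic sequence. The peaks past the end that were up lie on an exon of the GENCODE gene Gm16485. Spink1, a secreted serine protease inhibitor, had 1 peak, up with melatonin, of 9.69 and 1.245 kb past its end.

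**Figure D5:**
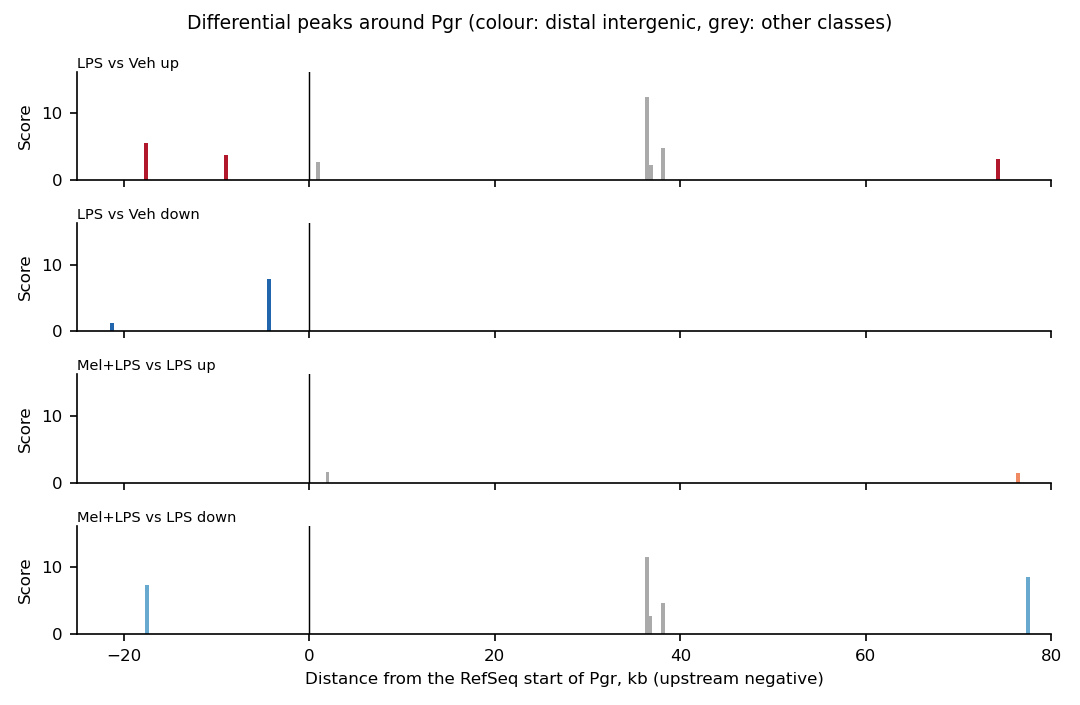
Differential peaks from 25 kb upstream to 80 kb downstream of the RefSeq start of Pgr (horizontal axis, kb) with their scores (vertical axis, log10 likelihood ratio), 1 panel for each table, narrow peaks widened to be visible. Coloured bars are distal intergenic peaks and grey bars are other classes. Distal intergenic peaks up under LPS and down with melatonin stand on both sides of the gene and share the place about 17.5 kb upstream, those down under LPS stand upstream, and the intron peaks of 12.5 and 11.6 are the highest.

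Each of the other gene lists had 0 to 4 such peaks, and the counts are too small to set most of them apart from the 10.5% of all peaks. Of 31 genes of Toll-like receptor and NF-kB signalling, only Ly96 had any, the co-receptor (MD-2) that presents LPS to TLR4. At chr1:16715424-16715598, 5.91 kb past its end, a peak of 3.04 was up under LPS and one of 2.16 at identical coordinates was down with melatonin. A second peak down with melatonin scored 1.24, and a peak 12.4 kb past the end was down under LPS at the repeated score of 3.63. These were 4 of the 66 peaks of any class at the 31 genes (6.06%, 2.38 to 14.6). Of 22 m6A writers, erasers and readers, with 64 peaks of any class, only Cbll1, a ubiquitin ligase associated with the methyltransferase complex, had a distal intergenic peak. It was up with melatonin, 6.60 kb past the end, at the repeated score of 5.42, and 1 of 64 is 1.56% (0.276 to 8.33). Of 14 genes of serum amyloid and secretory epithelium, with 43 peaks, Sprr2a1 and Sprr2b had 1 each (4.65%, 1.28 to 15.5). The 10 smooth muscle genes, with 26 peaks of any class, had 0 (0 to 12.9%).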

How the data were processed

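The members and the gene lists were chosen with earlier results of these data known. m6A-seq was performed on uterine RNA from 3 groups (Veh, LPS and Mel+LPS), with 3 IP and 3 input libraries each. According to the methods, mRNA was fragmented to about 100 nt and immunoprecipitated with an m6A antibody. Fastp was used by the authors for trimming, STAR (version 2.5.2a, submitters' processing notes) for alignment to mm10 (GRCm38), exomePeak2 for peak calling, MACS2 for the comparison of groups, and CHIPseeker (version 1.22.1) for annotation. How the 3 replicates were combined is not stated. The deposited tables give 1 score per peak, the log10 likelihood ratio from MACS2, with the peak's width, feature class and distance to the nearest start. They hold no depth and no value per library, so no test over samples and no paired analysis could be made. The table of losses under LPS was taken on chromosomes 1 to 9, where it is complete.

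From these tables, shares were computed with Wilson 95% intervals, which cover counting error only. Peaks within 5 kb were joined into loci, and peak centres were placed on GENCODE M21 genes and exons. All 2223 assigned symbols matched a RefSeq biotype (GRCm38.p6). Sequence came from GENCODE M21 transcripts, for peaks wholly on 1 exon. GGAC was counted on the transcript strand, with both strands as an alternative, because transcripts and not a genome were used. In each table, the peaks named are the 5 of highest score, the 3 loci with most peaks, the 3 of highest score within 10 kb past the 3' end of the assigned gene, the 3 of highest score on an exon, and the 2 of highest score per gene list, with overlapping peaks of the other tables beside them. Not every peak under this rule is reported here. The remaining places named, at Sprr genes and around Pgr and Ly96, were chosen after their values were seen. The gene families counted by name were not part of this rule. The distance to the assigned gene, the joining into loci, the overlap search and the Wilson interval were tested on simulated data. The other steps were not. The alternatives were a score of at least 3, merging within 1000 bases, bases in place of peaks, other distances, gaps and flanks, another motif set and chromosomes 1 to 9. Leaving out the repeated score (shares and medians), leaving out peaks inside a GENCODE gene, and counting both strands were added after seeing the data. Python 3.11.15, numpy 2.4.6, pandas 2.3.3, scipy 1.17.1 and matplotlib 3.10.9 were used.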

Additional observations from a re-analysis of the deposited data

Results flagged for a closer look

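Peaks of the same class were also listed outside the numbered chromosomes and X, in sequence that the comparisons above did not use. They were flagged as a signal in data left out of the comparisons. There were 104 such peaks up under LPS, 57 up with melatonin and 100 down with melatonin, with highest scores of 54.3, 32.1 and 17.2. They made up 19.3%, 11.3% and 22.8% of all peaks of these tables outside the numbered chromosomes and X. Of them, 32, 36 and 28 lay on the Y chromosome and 72, 21 and 72 on unplaced or unlocalised scaffolds. The origin of the reads behind the Y peaks was not tested.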

How the results depend on the processing

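The direction of the lean held under every alternative run: among distal intergenic peaks, the share up stayed at 55.8% to 59.6% in LPS vs Veh and at 22.5% to 28.7% in Mel+LPS vs LPS, where it left the counting interval of the reported value with scores of at least 3 (22.5%) and without the repeated score (28.7%). The distal intergenic share among peaks up under LPS, down under LPS, up with melatonin and down with melatonin rose to 20.8%, 16.2%, 7.40% and 24.0% with scores of at least 3. It fell to 11.6%, 7.96%, 3.65% and 15.1% without the repeated score, and to 10.8%, 7.92%, 3.13% and 13.8% without peaks inside a GENCODE gene. With loci merged within 1000 bases it was 12.6% and 16.0% among peaks up under LPS and down with melatonin, and by bases 14.0% and 18.3%; in the other tables these settings stayed within the interval. The cause of these shifts was not tested. The median score could not move in 3 tables while the repeated score was its value. Without that score it was 4.19, 4.08, 3.05 and 4.01, a move of over 1.5 times in peaks up with melatonin. The share within 10 kb past a 3' end moved with the distance set (12.8% to 31.3%), and the share in loci of several with the gap (13.8% to 37.2%). The share on exons ran from 6.72% to 21.8%, and among peaks up with melatonin it fell from 18.2% to 11.2% with scores of at least 3. The GGAC ratio ran from 0.830 to 2.35, above its interval in 3 tables with flanks 1000 bases away (1.70, 2.14 and 2.35), below 1 in peaks up under LPS with the wider motif set and with scores of at least 3, and the GC difference changed sign with distant flanks in peaks up with melatonin (-0.50 to 1.72 percentage points). The repeat-masked share and the motif and GC of peaks off exons were not run, as no genome was used. No paired analysis was possible because each peak has 1 score per comparison and none per replicate.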
